A study of Mus musculus with 4 samples.

Results

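The genes described here are 10 imprinted genes with a role in growth: H19, Mest, Peg3, Peg10, Dlk1, Meg3, Grb10, Plagl1, Ndn and Zim1. They were taken by name, as every probe set of the array whose annotation gave that gene as its only symbol. Of the 10 genes, 9 had such a probe set, 35 probe sets in all, out of 18193 genes and 45037 probe sets measured. H19 had none of its own and shared 1 probe set with the microRNA gene Mir675. The arrays came from a search for target genes of Deaf-1, a transcription factor that binds DNA containing TTCG. Mammary epithelial cells (MECs) from Deaf-1-null mice had been immortalised with a retrovirus carrying the E6/E7 proteins of human papilloma virus HPV16, and clones E1 and C1 were each given a Deaf-1 retrovirus or an empty control retrovirus and selected in puromycin for 48 h. RNA from each of the 4 cultures was hybridised to 1 Affymetrix mouse array: Deaf-1 and control in clone E1, and Deaf-1 and control in clone C1. All 4 cultures therefore shared the Deaf-1-null genotype and E6/E7, each clone was 1 cell line, and the cells came from females aged 8 weeks.

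An imprinted gene is transcribed mainly from the copy inherited from 1 parent, and the choice is set by DNA methylation that the germ line lays down on 1 parental copy of a control region. The methylated copy can be the silent or the expressed one, depending on the gene. Many imprinted genes act on fetal and placental growth, and in the mouse those expressed from the paternal copy often promote growth while those expressed from the maternal copy often restrain it. Expression of many of them falls after birth, and imprinted genes can change their level or lose their imprint in cultured and tumour cells. The arrays measured total RNA of each gene and not the parental copy it came from.

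The promoters of Ndn, Dlk1, Plagl1 and Meg3, the members whose own leading probe set passed the test between clones, are shown first. Deaf-1 binds TTCG, and these are the windows in which such letters would lie nearest to the start of the gene. Each runs 5′ to 3′ along the gene's strand over 300 bases around an annotated start (the most upstream one for Meg3), from RefSeq on GRCm38.p6. Capitals mark TTCG or its reverse complement CGAA. The windows are chr7:62348027-62348326 (+ strand) for Ndn, chr12:109452573-109452872 (+ strand) for Dlk1, chr10:13090582-13090881 (+ strand) for Plagl1 and chr12:109540746-109541045 (+ strand) for Meg3.
Ndn: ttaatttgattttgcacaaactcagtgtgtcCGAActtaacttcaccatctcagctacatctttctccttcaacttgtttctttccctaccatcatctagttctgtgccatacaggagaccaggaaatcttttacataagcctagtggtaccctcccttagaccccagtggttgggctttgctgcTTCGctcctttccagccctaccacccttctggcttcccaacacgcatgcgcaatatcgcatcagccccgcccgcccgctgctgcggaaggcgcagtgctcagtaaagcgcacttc
Dlk1: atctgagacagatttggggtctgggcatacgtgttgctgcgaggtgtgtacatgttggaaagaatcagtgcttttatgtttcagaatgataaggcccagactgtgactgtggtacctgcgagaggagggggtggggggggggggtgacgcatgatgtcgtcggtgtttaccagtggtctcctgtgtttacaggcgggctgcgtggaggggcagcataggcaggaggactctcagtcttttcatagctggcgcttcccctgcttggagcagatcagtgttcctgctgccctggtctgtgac
Plagl1: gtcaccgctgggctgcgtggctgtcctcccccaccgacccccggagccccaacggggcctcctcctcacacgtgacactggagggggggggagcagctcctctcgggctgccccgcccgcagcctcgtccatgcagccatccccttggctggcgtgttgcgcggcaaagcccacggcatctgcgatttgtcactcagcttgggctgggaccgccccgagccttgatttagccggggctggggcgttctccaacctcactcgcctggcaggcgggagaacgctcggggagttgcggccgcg
Meg3: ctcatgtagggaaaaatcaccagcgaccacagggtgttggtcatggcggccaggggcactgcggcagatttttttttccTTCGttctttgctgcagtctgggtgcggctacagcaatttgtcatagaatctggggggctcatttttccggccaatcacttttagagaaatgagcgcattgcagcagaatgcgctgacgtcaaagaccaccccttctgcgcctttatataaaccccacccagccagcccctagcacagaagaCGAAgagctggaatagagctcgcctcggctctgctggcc
The Ndn and Meg3 windows each held 2 matches on either strand, and those of Dlk1 and Plagl1 held 0. The windows of Mest, Peg3, Grb10 and Zim1, which complete the 8 members matched in the table, also held 0. Of 27025 mouse promoter windows of the same length, 44.7% held at least 1 match, so these letters are common. The windows differed more in CpG dinucleotides, the bases that DNA methylation marks. Grb10 had 45, Plagl1 26, Zim1 20, Meg3 and Peg3 13 each, Ndn 11, Dlk1 9 and Mest 8. Over all windows the median was 7 and the upper quartile 20.

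The probe set that H19 shared carries a second kind of sequence. H19 RNA is the host transcript of Mir675, from which the microRNAs miR-675-5p (chr7:142577112-142577133) and miR-675-3p (chr7:142577078-142577099, both on the - strand of GRCm38.p6) are cut. They are given from RefSeq with the seed, bases 2 to 8, in capitals.
miR-675-5p: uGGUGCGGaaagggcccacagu
miR-675-3p: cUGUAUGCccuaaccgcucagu
The seeds GGUGCGG and UGUAUGC differ. The array measured the longer transcripts and gave no value for either mature microRNA.

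Values below are the RMA expression levels as deposited, on a log2 scale, so that a difference of 1 is a doubling or a halving. A level of 3.83, the 95th percentile of 44 olfactory receptor probe sets, was taken as background, a level that between 49.2% and 50.8% of the probe sets of an array exceeded. Deaf1 RNA, the check of the labels, stood higher with the Deaf-1 than with the control retrovirus in each clone, at 6.25 with Deaf-1 and 4.91 with control in E1 and at 6.73 and 5.01 in C1 in the same order. The control arrays of these null cells thus also read above background at this probe set, and what it detected there was not tested. Arrays of 1 clone correlated at 0.992 for E1 and 0.994 for C1 across probe sets, and arrays of different clones at 0.976 to 0.983. The epithelial label was poorly matched by its markers: by the mean over the 4 arrays, 4 of 12 epithelial genes lay above background (Epcam, Krt19, Krt5 and Trp63), Cdh1, Krt8, Krt18 and Krt14 did not (Krt8 was just above it on both E1 arrays, at 4.01 and 3.84, and below it in C1, at 3.46 and 3.57), and all 11 fibroblast and mesenchymal markers measured did, with Col3a1 at 13.38 to 13.63 and Vim at 12.13 to 12.82.

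The Deaf-1 retrovirus changed no member past the threshold, whereas Ndn, Dlk1, Plagl1 and Meg3 differed between the clones. Ndn was 4.92-fold higher in E1, Dlk1 and Plagl1 were 5.48-fold and 4.47-fold lower, and Meg3 was 1.59-fold lower. The probe set that H19 shared with Mir675 was 2.36-fold higher in E1 and passed the test too. Of the rest, Grb10 was well above background and did not pass the test, Peg10 and Peg3 lay near background, and Mest and Zim1 lay below it. A difference between clones was called at p under 0.01 by limma with the retrovirus in the model. Since each clone was a single cell line measured on 2 arrays, the test takes its spread from arrays of the same clone and does not extend to other clones.

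**Figure D1:**
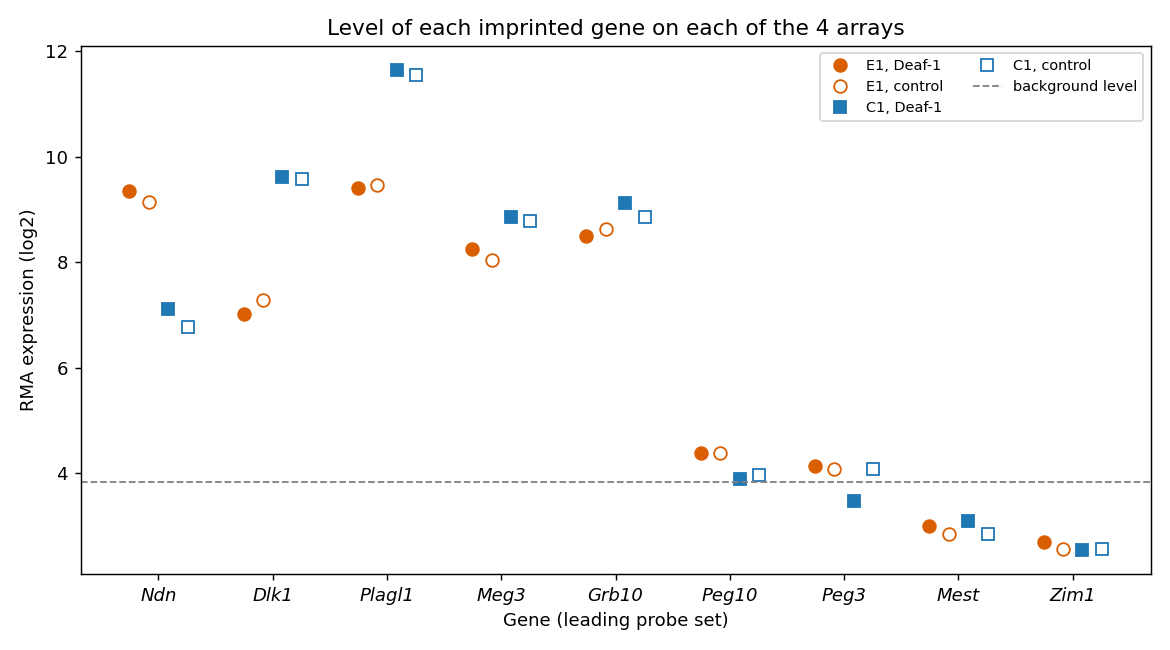
RMA expression (log2) of the leading probe set of each gene on each of the 4 arrays. Circles are clone E1, squares clone C1, filled symbols Deaf-1 and open symbols control, and the dashed line is the background level of 3.83. Ndn is higher on both E1 arrays, Dlk1 and Plagl1 are higher on both C1 arrays, and Mest and Zim1 lie below the line on all 4.

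Ndn encodes necdin, a growth suppressor expressed from the paternal copy and lost in human Prader-Willi syndrome. In RNA of a whole culture, fewer expressing cells and less RNA per cell cannot be told apart. Its leading probe set gave 9.35 with Deaf-1 and 9.13 with control in E1, against 7.11 and 6.78 in C1. Both E1 arrays lay more than 2 log2 units above both C1 arrays. The difference was 2.30 ± 0.15 (SE), a 4.92-fold higher level in E1, with an adjusted p of 0.0529 by limma. It was 2.24 between the Deaf-1 arrays and 2.36 between the control arrays. The other 4 Ndn probe sets above background differed by 2.80 to 2.91, and 1 of them (at 9.32 and 9.54 in E1 and 6.63 and 6.59 in C1) had an adjusted p of 0.0415. All 5 were called at p under 0.01, and 3 further probe sets lay below background. The leading probe set carries the suffix _x_at, given where some probes can match other transcripts, but the probe set with the adjusted p of 0.0415 does not, and it gave a 7.05-fold difference.

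Dlk1 encodes a transmembrane protein related to Notch ligands that restrains the maturation of fat cell precursors, and it is expressed from the paternal copy. It gave 7.02 with Deaf-1 and 7.28 with control in E1, against 9.63 and 9.59 in C1. The E1 arrays lay more than 2 log2 units below the C1 arrays. The difference was -2.45 ± 0.16 (SE), with an adjusted p of 0.0529 by limma, and a second probe set lay below background. Among marker genes of fat cells, Fabp4 ran the other way, at 10.56 and 10.59 in E1 against 3.77 and 2.57 in C1. The fat cell list of 5 measured genes had a summed level, on the linear scale, of 1557 and 1580 in E1 and of 51.0 and 50.3 in C1. That gap came from Fabp4, since Adipoq, Cidec and Lep lay below background in both clones and Retn differed by 0.18. Whether Fabp4 and Dlk1 were linked was not tested.

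Plagl1 encodes a zinc finger transcription factor that can halt the cell cycle, and it is expressed from the paternal copy. It gave 9.41 with Deaf-1 and 9.48 with control in E1, against 11.65 and 11.56 in C1. The E1 arrays again lay about 2 log2 units below the C1 arrays, with a difference of -2.16 ± 0.15 (SE) and an adjusted p of 0.0529 by limma. This leading probe set also carries the suffix _x_at, so some of its probes can match other transcripts. The second probe set above background, without that suffix, read lower in both clones. It gave 3.99 and 5.03 in E1 against 6.81 and 6.68 in C1. Its difference of -2.23 ± 0.32 (SE) was of the same size, though its 2 E1 arrays were 1.05 apart. A further probe set lay below background. Of these 3 genes, all known for expression from the paternal copy, Ndn was higher in E1 and Dlk1 and Plagl1 were lower. Which copy was expressed in these cells was not measured.

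**Figure D2:**
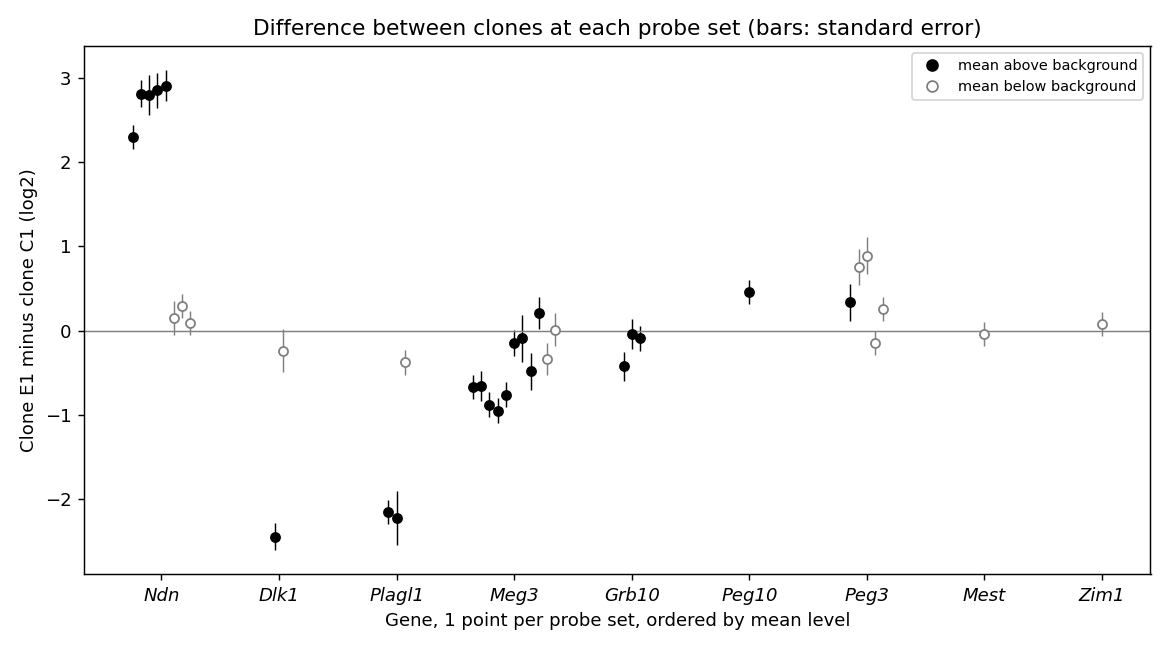
Difference between clones (E1 minus C1, log2) at each of the 35 probe sets, with bars of 1 standard error from the limma fit. Filled points have a mean above background and open points below. The 5 filled Ndn points lie at 2.30 to 2.91, both filled Plagl1 points and the filled Dlk1 point lie below -2, and the Meg3 points spread over -0.95 to 0.21.

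Meg3 is a long non-coding RNA expressed from the maternal copy of the domain that holds Dlk1, and it is known as a growth suppressor. Its leading probe set gave 8.25 with Deaf-1 and 8.05 with control in E1, against 8.86 and 8.79 in C1. The arrays of the clones did not overlap, as at 62% of all leading probe sets above background. The difference was -0.67 ± 0.15 (SE), with an adjusted p of 0.178 by limma although its unadjusted p was below the threshold. Of 11 Meg3 probe sets, 9 lay above background, of which 8 were lower in E1 and 1 higher, and 4 were called. The one with the largest difference, an _x_at probe set, gave 7.64 and 7.49 in E1 against 8.69 and 8.34 in C1. Its difference was -0.95, and a called probe set without that suffix differed by -0.88. The Meg3 call was lost without probe sets below background and without the control array of E1 (-0.57), the Deaf-1 array of C1 (-0.64) or the control array of C1 (-0.71). The RNAs Rian and Mirg, transcribed downstream of Meg3 from the same copy, differed by -0.26 and -0.44 and were not called.

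Grb10, an adaptor that restrains insulin receptor signalling and is maternally expressed in most mouse tissues, gave 8.50 with Deaf-1 and 8.64 with control in E1, against 9.13 and 8.86 in C1. The clones did not overlap, but the difference of -0.43 ± 0.17 (SE) was not called, with an adjusted p of 0.386 by limma. Its other 2 probe sets differed by -0.04 and -0.09, and at both the clones overlapped.

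The probe set annotated to both Mir675 and H19 gave 10.54 with Deaf-1 and 10.44 with control in E1, against 9.26 and 9.24 in C1. H19 is a maternally expressed RNA that is abundant in fetal tissue. The difference was 1.24 ± 0.14 (SE), 2.36-fold higher in E1, called with an adjusted p of 0.0909 by limma. Both genes lie in the same transcript, so the value is given for the probe set and not for H19 alone. Igf2, the paternally expressed growth factor of the same domain, gave 5.31 and 5.0 in E1 against 4.98 and 5.22 in C1, a difference of 0.06 that did not pass the test.

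Peg10 and Peg3 were close to background. Peg10, a gene derived from a retrotransposon and needed for the placenta, gave 4.39 on both E1 arrays, against 3.88 with Deaf-1 and 3.97 with control in C1. The clones did not overlap, but the difference of 0.46 ± 0.14 (SE) had an adjusted p of 0.279 by limma. Peg3, a zinc finger protein of the paternal copy, gave 4.14 with Deaf-1 and 4.07 with control in E1, against 3.48 and 4.07 in C1. Only the Deaf-1 array of C1 lay apart, and the difference of 0.33 ± 0.22 (SE) was not called. Peg3 had 4 further probe sets, all below background on average. They differed by 0.89, 0.76, 0.26 and -0.15, and none was called. The probe sets with 0.89 and 0.76 exceeded background on 1 E1 array each. Mest, a paternally expressed enzyme of the hydrolase fold, lay at 2.84 to 3.09, and Zim1, a maternally expressed zinc finger gene beside Peg3, was likewise below background on every array.

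Counted by leading probe set, 7 of the 9 genes lay above background, 1 was called higher in E1 and 3 lower, and none reached an adjusted p under 0.05. Of 11730 leading probe sets above background, 5.1% were called higher, 5.21% lower, and 0.264% reached an adjusted p under 0.05 in either direction. The arrays of the clones did not overlap for 62% of those probe sets, so that non-overlap alone, as for Meg3, Grb10 or Peg10, is common. The median size of the difference was 0.67 over the 7 genes and 0.25 over all 11730. Ranked by size, Dlk1 stood at 55, Ndn at 63 and Plagl1 at 84 of 11730, whereas Meg3 stood at 1500, Peg10 at 2978, Grb10 at 3357 and Peg3 at 4543. The members were chosen with earlier results of these data known, so these sizes and ranks describe the list and do not test it. At 22 probe sets above background, 12 were called and 1 reached an adjusted p under 0.05. The 12 were repeat readings of the same genes, 5 of Ndn, 4 of Meg3, 2 of Plagl1 and 1 of Dlk1. Over all 45037 probe sets, including those below background, 2425 were called and 49 reached an adjusted p under 0.05.

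Other imprinted genes were read from lists of their own. Of 22 further genes expressed mainly from the paternal copy, 17 were measured, 9 lay above background, and 3 were called, all higher in E1. These were Nnat, a small membrane protein, by 2.18, Slc38a4, an amino acid transporter, by 2.13, and Zdbf2 by 0.83. The share over all leading probe sets above background was 5.1% called higher and 5.21% called lower. Slc38a4 gave 7.89 and 7.92 in E1 against 5.95 and 5.61 in C1. Of 22 genes expressed mainly from the maternal copy, 20 were measured, 13 lay above background, and 1 was called. This was Cdkn1c, which encodes the cell cycle inhibitor p57, at 9.64 with Deaf-1 and 9.74 with control in E1, against 6.78 and 6.43 in C1. Its difference of 3.08 ± 0.18 (SE), 8.47-fold higher in E1, had an adjusted p of 0.0439 by limma. Nap1l5 and Peg12 had a mean below background and were called. They were picked out after their values were seen: Nap1l5 gave 2.66 and 2.35 in E1 against 4.51 and 4.26 in C1, and Peg12 gave 4.29 and 4.47 in E1 against 2.76 and 3.04 in C1.

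**Figure D3:**
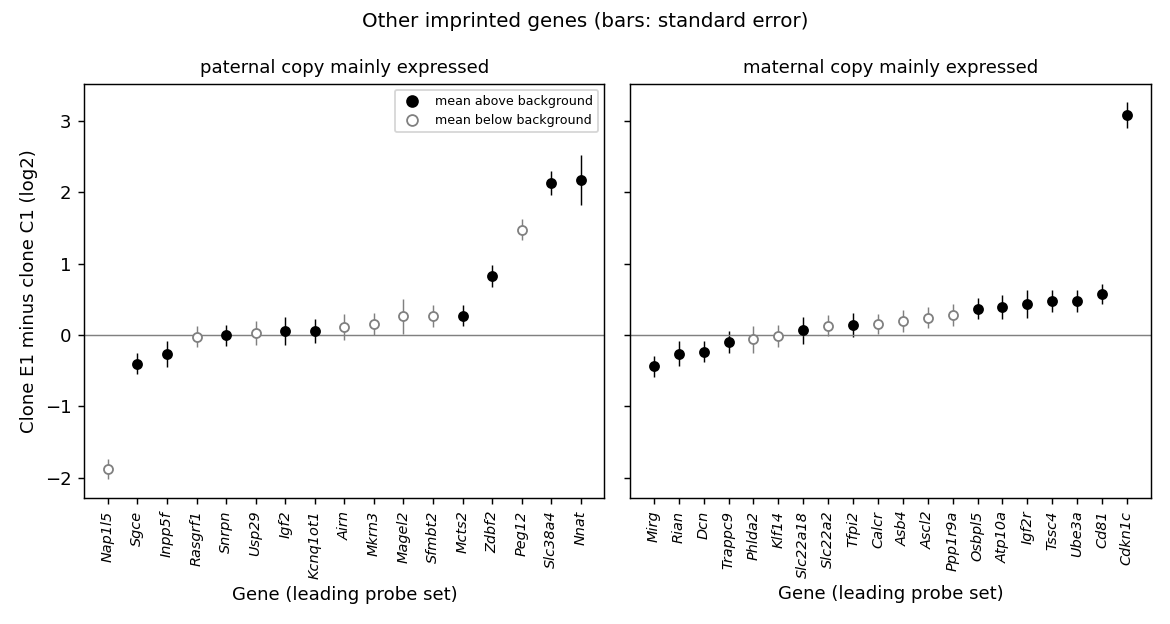
Difference between clones (E1 minus C1, log2) of the other imprinted genes, with bars of 1 standard error from the limma fit, for genes expressed mainly from the paternal (left) and maternal (right) copy. Filled points have a mean above background. Most genes lie near 0, Cdkn1c lies at 3.08, and Nnat and Slc38a4 lie at 2.18 and 2.13.

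The genes around each member were then compared, as the 10 nearest genes above background on either side in RefSeq gene order. Around Plagl1, on chromosome 10, 18 of 20 neighbours were lower in E1, 7 of them called, with a median difference of -0.73. Ltv1, a ribosome assembly factor beside Plagl1, gave 7.75 and 7.79 in E1 against 8.87 and 8.93 in C1. The whole of chromosome 10 was lower in E1, with a median of -0.51 over 570 genes, the lowest of 20 chromosomes, and 29.1% of its genes were called lower. The median over all genes above background was -0.02. Chromosome 1 stood at the other end, with a median of 0.48 over 654 genes, of which 88.5% were higher and 26.8% were called higher. Neighbours of Nnat, Slc38a4 and Zdbf2 were not compared. The Plagl1 difference of -2.16 was larger than that of any of its 20 neighbours, which reached -1.58. Around Ndn, on chromosome 7, 16 of 20 neighbours were higher in E1, with a median of 0.38 and a highest value of 0.94. Chromosome 7 had a median of 0.17 over 892 genes, of which 73.4% were higher. Around Dlk1, on chromosome 12, 12 of 20 neighbours were higher and 8 lower, with a median of 0.05, and chromosome 12 had a median of 0.01. The nearest downstream neighbours were all lower in E1: Meg3 (-0.67), Rian (-0.26), Mirg (-0.44) and Dio3os (-0.60), of which only Meg3 was called. Ppp2r5c, the next in order, was higher by 0.42. Ndn, Dlk1 and Plagl1 have the largest differences of the members, so standing apart from their neighbours was likely beforehand and is no test. Large single differences also lay around other members, as for Igfbp3 near Grb10 (3.12) and Cdkn1c near H19 (3.08). Chromosome number, DNA methylation and the parental origin of the RNA were not measured, and their part in these differences was not tested.

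**Figure D4:**
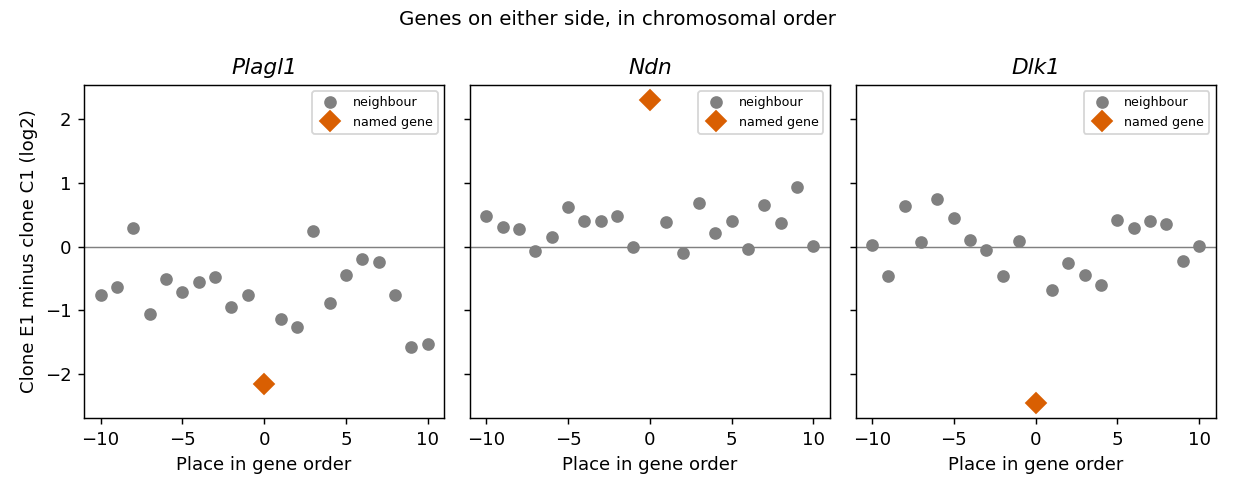
Difference between clones (E1 minus C1, log2) of the 10 nearest genes above background on either side of Plagl1, Ndn and Dlk1, by place in gene order, with the named gene as a diamond at 0. The diamond lies outside the spread of its neighbours in all 3 panels, and the Plagl1 neighbours have a median of -0.73. These 3 genes have the largest differences among the members, so such a place was likely from the start.

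Of the listed neighbours above background, Ltv1 (1 of 3 around Plagl1) and Cep41 (1 of 2 around Mest) passed the test, and none did in the other domains. Over all leading probe sets above background, 5.1% were called higher and 5.21% lower. Cep41, near Mest, gave 4.55 and 4.74 in E1 against 5.60 and 5.67 in C1. Ube3a and Snrpn, in the domain that holds Ndn, differed by 0.48 and 0.00, and Sgce, next to Peg10 and expressed from the same copy, by -0.40. Snrpn lay near background, at 4.15 and 3.84 in E1 and 4.19 and 3.81 in C1, where a difference of 0.00 says little. Clone E1 also differed from C1 in other marker lists: 3 of 11 fibroblast and mesenchymal markers were called, Pdgfrb at 9.12 and 9.25 in E1 against 8.42 and 8.29 in C1, Lum at 3.57 and 4.26 against 6.94 and 6.52, and S100a4 at 7.22 and 7.37 against 8.33 and 8.27. The summed level of that list was 46774 and 44598 in E1 and 42473 and 41880 in C1. Of 6 smooth muscle markers 4 lay above background, and Cnn1 and Mylk were called lower in E1. The summed level was 4210 and 4092 in E1 and 5462 and 5837 in C1. Of the endothelial markers 2 of 6 lay above background and of the immune markers 2 of 5, and none was called. The part of these marker genes in the differences of the imprinted genes was not tested.

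The question the arrays were made for was which genes respond to Deaf-1. None of the 35 probe sets was called for Deaf-1 minus control at p under 0.01, either without the clone in the model, where 0.0111% of all 45037 probe sets were called, or with clone as a block, where 0.0244% were. The lowest p among members was 0.0981, and 0.0965 with the block, both for a Grb10 probe set that gave 6.13 with Deaf-1 and 5.74 with control in E1 and 6.15 and 5.91 in C1. Its change was 0.31 ± 0.15 (SE), and its adjusted p by limma was 1. Over the 35 probe sets the change ran from -0.46 to 0.32, and the lowest adjusted p was 1 in both fits. No probe set of the array reached an adjusted p under 0.05 in either fit. That includes Deaf1 itself, which changed by 1.53 with an unadjusted p of 0.0012 by limma without the clone. The adjusted p therefore says little about whether a member responded.

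By gene, Ndn changed by 0.27, with a standard error of 1.09 without the clone in the model and 0.15 with it. Its 5 probe sets above background did not share a direction, since the change was 0.27 at the leading one and -0.09 at the next. Meg3 changed by 0.14 with a standard error of 0.35, or 0.15 with the block, at 8.25 and 8.86 with Deaf-1 against 8.05 and 8.79 with control in E1 and C1. Plagl1 changed by 0.01, with a standard error of 1.02 without the clone and 0.15 with it. The fit without the clone was therefore imprecise for the genes that differed between clones. Dlk1, Grb10, Plagl1 and Peg3 moved in opposite directions in the 2 clones. Among all leading probe sets above background, 7417 of 11730 did so, against 4 of 7 members. The probe set shared by H19 and Mir675 changed by 0.09 in E1 and 0.02 in C1. No gene of the other imprinted lists or of the neighbour lists was called for Deaf-1.

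**Figure D5:**
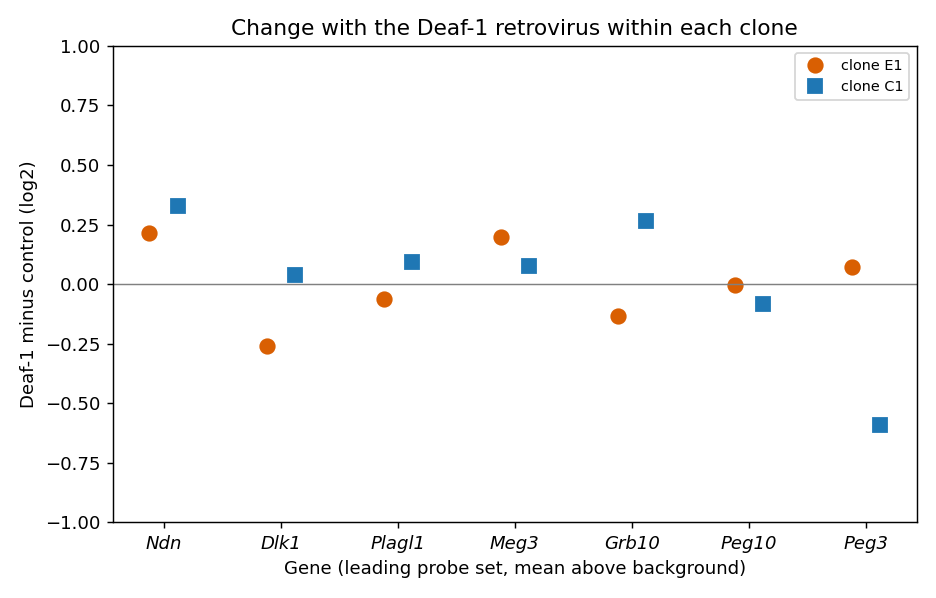
Change with the Deaf-1 retrovirus (Deaf-1 minus control, log2) within clone E1 (circles) and clone C1 (squares), for the leading probe set of each of the 7 genes above background. Each point is 1 pair of arrays and has no error of its own. All points lie between -0.59 and 0.33, and Dlk1, Plagl1, Grb10 and Peg3 lie on opposite sides of 0 in the clones.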

How the data were processed

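Total RNA of 4 cultures was hybridised to 4 Affymetrix arrays. For the deposited values the authors used RMA, which corrects background, normalizes between arrays and gives 1 log2 value per probe set and array. RMA and limma are named in the submitters' processing notes without versions. Arrays have no counts, and their number limits the precision. The values ran from 1.75 to 13.63, with array medians of 3.77 to 3.87, and were used as they are. Of 45101 probe sets, 64 control probe sets were left out. Of the rest, 34945 had 1 gene symbol in GEO's platform annotation, 932 several and 9160 none, and symbols matched RefSeq by gene identifier for 18032 of 18193 genes.

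Deaf-1 was compared with control, and clone E1 with clone C1 with the retrovirus in the model, by limma 3.58.1 (lmFit and eBayes) in R 4.3.3, in two-sided tests, and p-values were adjusted by Benjamini-Hochberg across all 45037. A probe set was called at p under 0.01, and those with an adjusted p under 0.05 were counted separately. Groups came from the labels, whose c and e were read as clones C1 and E1. Arrays of 1 clone form a pair because they came from the same cell line, and their deviations from the retrovirus means correlated at 0.54. The main Deaf-1 fit left this pairing out, and the fit with clone as a block was the alternative that used it. Clones stand for replicates of the retrovirus. The study's results give 1 donor mouse and its methods give several, so whether the clones came from separate mice is unsettled, and p-values measure the spread between these arrays.

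All 10 genes were named with every probe set, that of the highest mean leading, together with neighbours and with other listed imprinted genes called above background. The members and lists were chosen with earlier results of these data known. The comparisons with neighbours and whole chromosomes were added after the data were seen. The fits were tested on simulated data. Alternatives were clone as a block, arrays left out, a filter at background, quantile, median or loess normalization, a trend or robust prior, and no retrovirus in the model.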

Additional observations from a re-analysis of the deposited data

Results flagged for a closer look

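With the Deaf-1 retrovirus, 4 genes changed one way in clone E1 and the other way in clone C1. Peg3 changed by 0.0709 in E1 and -0.593 in C1 on the log2 scale, and both values lie near background. Dlk1 changed by -0.260 in E1 and 0.0393 in C1. Grb10 changed by -0.133 in E1 and 0.264 in C1. Plagl1 changed by -0.0632 in E1 and 0.0929 in C1. Each change is 1 array against 1 array, and the difference between the clones was not tested. Opposite directions were seen at 7417 of 11730 leading probe sets above background.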

How the results depend on the processing

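No member was called for Deaf-1 under any setting tried. The number of all probe sets called for Deaf-1 was 5, and it was 11 with clone as a block (the paired analysis), 2 with the filter at background, 25 with the trend prior and 2 to 47 with 1 array left out. Without 1 array the Deaf-1 fits compare unequal mixes of clones, and the change ran from -0.59 to 0.0717 for Peg3, -0.29 to 0.21 for Peg10, -1.41 to 1.19 for Dlk1, -0.23 to 0.50 for Meg3, -0.25 to 0.38 for Grb10, -1.10 to 1.13 for Plagl1, -0.91 to 1.45 for Ndn and -0.0241 to 0.13 for Zim1. Median centring shifts each array by 1 constant, so it lowered every Deaf-1 change by the same amount, as for Ndn from 0.273 to 0.251. Plagl1, already close to 0 at 0.015, thereby changed sign to -0.0064, with a standard error of 1.01.

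Between clones, 2425 probe sets were called, 4346 with no retrovirus in the model and 1514 to 2980 with 1 array left out. Members called numbered 4, against 3 with the filter, 5 with no retrovirus in the model, where Peg10 was called, and 3 to 4 with 1 array left out. Ndn, Dlk1 and Plagl1 were called under every setting, with 2.13 to 2.46, -2.58 to -2.32 and -2.21 to -2.11 when 1 array was left out. Meg3 was called in 1 of 4 such fits, at -0.77 to -0.57, and Mest, below background, ran from -0.16 to 0.0853.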
